A study of Mus musculus with 6 samples.

Results

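Ucp1 and 9 other core genes of beige adipocytes were followed in mouse iWAT (inguinal white fat), a depot under the skin where heat-producing beige cells appear in the cold. The set was chosen by gene symbol and comprises Ucp1, Cidea, Dio2, Elovl3, Ppargc1a, Prdm16, Otop1, Kcnk3, Plin5 and Letmd1, 10 of the 23997 genes in the deposited expression table. Poly(A) RNA was sequenced from 6 libraries in 2 groups of 3. Atf4AKO mice carried floxed Atf4 together with a Cre recombinase driven by the adiponectin promoter, which is active in adipocytes, and Atf4WT mice carried floxed Atf4 without Cre. All mice were housed at 22 °C and then spent 12 h at 5 °C before the fat was frozen, so every group was in the cold and no library gives a level before cold. The labels give neither age nor sex, and do not say whether a library is 1 animal or a pool, and p-values here speak only of the spread among these libraries. Since Cre was present in Atf4AKO mice alone, effects of Cre and of ATF4 loss cannot be told apart.

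Beige adipocytes make heat when noradrenaline, released by sympathetic nerves in the cold, raises cyclic AMP in the cell. Fatty acids freed from lipid droplets then fuel the mitochondria and open UCP1, a carrier of the inner membrane that lets protons return without making ATP. The same signal switches on Ucp1 transcription through factors that bind cyclic AMP response elements and through PGC-1α, the product of Ppargc1a. ATF4 is a transcription factor of the integrated stress response, and the series asks what it does in adipocytes during cold-induced browning.

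Values are FPKM, sequenced fragments scaled by transcript length and by library total, so levels of different genes can be compared per length. The comparison of genotypes used limma on log2(FPKM + 1) over the 12818 genes that averaged 0.5 FPKM or more. All 10 members were among them. A log2 change is Atf4AKO minus Atf4WT on that scale.

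The libraries differed in what they held besides adipocytes. Atf4, the targeted gene, was between 114.1 and 152.1 FPKM in Atf4AKO libraries and between 258 and 323 FPKM in Atf4WT libraries, lower in every Atf4AKO library (log2 change -1.14, limma adjusted p = 0.49). The 12 skeletal muscle markers summed to 3007, 8477 and 8.63 FPKM in Atf4AKO 1, 2 and 3, and to 21.4, 881 and 9.89 FPKM in Atf4WT 1, 2 and 3. The 8 epithelial markers of mammary gland and skin summed to 0.672, 8.22 and 134 FPKM in the Atf4AKO libraries and to 716, 144.05 and 0.744 FPKM in the Atf4WT libraries, the highest sum in Atf4WT 1. The 8 macrophage markers summed to 2674, 914 and 458 FPKM in the Atf4AKO libraries and to 554, 366 and 227 FPKM in the Atf4WT libraries, 3.53 times as high in the Atf4AKO mean. The 7 fibroblast and preadipocyte markers summed to 2230, 1386 and 1065 FPKM in the Atf4AKO libraries and to 1205, 704 and 675 FPKM in the Atf4WT libraries, 1.81 times as high in the Atf4AKO mean. The part of these cells in the values below was not tested. The 10 adipocyte markers, among them Adipoq and Plin1, were present in every library and summed to between 65696 and 100403 FPKM in Atf4AKO and between 57316 and 79462 FPKM in Atf4WT. Zic1, a defining marker of classical brown adipocytes, was listed at 0 in 5 of the 6 libraries and at 0.0614 FPKM in Atf4AKO 2. The other 4 classical brown markers listed were expressed in every library. Their lowest values were 18.4 FPKM for Mpzl2, 4.67 for Ebf3, 2.71 for Lhx8 and 1.31 for Epsti1. These are levels of a whole pad, in which fewer beige cells and less RNA per beige cell cannot be told apart.

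The core genes did not separate the genotypes, but they differed widely among the Atf4WT libraries and little among the Atf4AKO libraries. Every member was lowest in Atf4WT 1, and 8 of the 10 were also highest in Atf4WT 2, beside 5.41% of all tested genes. The share of all tested genes lowest in Atf4WT 1, whatever their highest library, was not counted. That library had the lowest sum of FPKM over all genes (524158). Atf4WT 1 was also the library with the highest epithelial sum, whose part in its low values was not tested, and with the lowest adipocyte sum. In 9 of the 10 the standard deviation of the log2 values was larger in Atf4WT than in Atf4AKO, as it was in 44.6% of all tested genes. Ppargc1a was the exception. No member passed the threshold between genotypes (0 of 10 by limma at an adjusted p of 0.05, beside 0.0156% of all tested genes), and none had an unadjusted p under 0.05, beside 9.95% of all tested genes. In no member did the groups separate, whereas in 8.21% of all tested genes all Atf4AKO libraries lay above and in 8.34% all lay below the Atf4WT libraries. In sign 7 members were positive, beside 50.6% of all tested genes, and 3 negative. The median log2 change was 0.10 for the members and 0.00 for all tested genes. The exact two-sided permutation p, which cannot go below 0.1 with 3 against 3 libraries, was between 0.2 and 1 for the members.

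**Figure D1:**
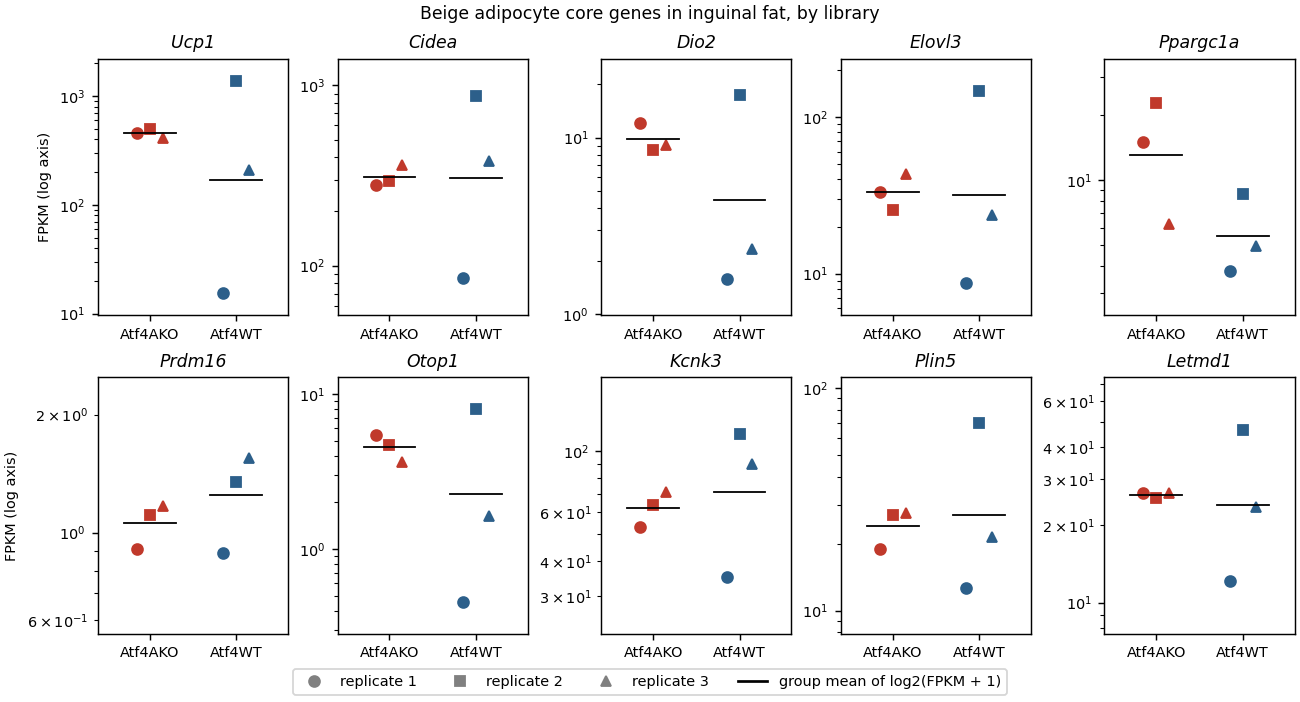
FPKM of each member on a log axis, with Atf4AKO libraries in red on the left and Atf4WT libraries in blue on the right. Symbols give the replicate number and the line the group mean of log2(FPKM + 1), and in every panel Atf4WT 1 is the lowest point.

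Ucp1, the uncoupling protein itself, stood at 456, 497 and 415 FPKM in the Atf4AKO libraries and at 15.5, 1370.1 and 211 FPKM in the Atf4WT libraries. The Atf4AKO libraries thus lay close together and inside the range of Atf4WT. The highest Atf4AKO library was 1.20 times the lowest, against 88.6 times in Atf4WT. Mean FPKM was 456 ± 40.8 in Atf4AKO and 532 ± 732 in Atf4WT (SD, n = 3 each), a ratio of 0.856. The log2 change pointed the other way, at 1.43 (SE 1.46, 95% interval -2.07 to 4.94, limma adjusted p = 0.673), because the mean of logs weighs the low library Atf4WT 1 more and the mean of FPKM the high library Atf4WT 2. Without Atf4WT 1 the log2 change was -0.24, and without Atf4WT 2 it was 2.95. The sign for Ucp1 is therefore set by which of these libraries is counted. In planned fits the log2 change was 0.65 with the muscle marker level of each library as a covariate and 0.63 with array weights, a weight for each library. It was 0.17 with the adipocyte marker level and 0.74 with the epithelial level as a covariate, fits chosen after seeing the data.

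**Figure D2:**
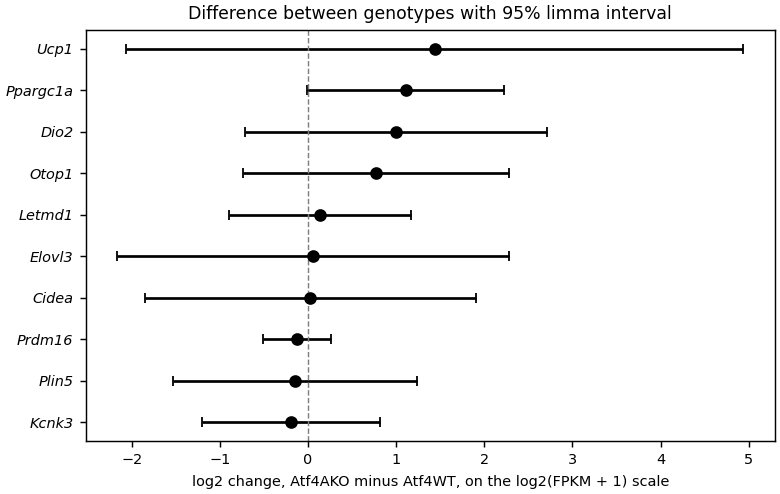
Log2 change of each member, Atf4AKO minus Atf4WT, with its 95% limma interval (bars) from 3 libraries a group. Every interval includes 0, and those of Ucp1, Elovl3 and Cidea are the widest.

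The promoters of Ucp1, Dio2 and Ppargc1a are shown because these members had the highest log2 changes and are textbook targets of cyclic AMP signalling. The sequences are from RefSeq (GRCm38.p6, the build of the deposited table) and lie just before a RefSeq start of transcription. The Dio2 window lies farther upstream of the gene as GENCODE vM21 draws it, while those of Ucp1 and Ppargc1a lie next to it. Capitals mark TGACG or its reverse CGTCA, the core of the cyclic AMP response element, searched on both strands.
Ucp1, chr8:83290098-83290347, plus strand: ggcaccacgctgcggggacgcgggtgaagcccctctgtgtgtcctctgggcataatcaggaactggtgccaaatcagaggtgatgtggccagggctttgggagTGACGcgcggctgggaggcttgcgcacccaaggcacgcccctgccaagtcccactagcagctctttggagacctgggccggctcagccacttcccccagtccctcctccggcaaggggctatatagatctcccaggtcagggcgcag
Dio2, chr12:90739039-90739288, minus strand: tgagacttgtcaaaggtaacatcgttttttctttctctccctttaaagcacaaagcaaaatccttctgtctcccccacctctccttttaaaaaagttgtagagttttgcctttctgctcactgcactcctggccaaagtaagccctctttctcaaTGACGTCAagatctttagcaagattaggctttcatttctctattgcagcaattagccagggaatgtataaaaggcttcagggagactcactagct
Ppargc1a, chr5:51567727-51567975, minus strand: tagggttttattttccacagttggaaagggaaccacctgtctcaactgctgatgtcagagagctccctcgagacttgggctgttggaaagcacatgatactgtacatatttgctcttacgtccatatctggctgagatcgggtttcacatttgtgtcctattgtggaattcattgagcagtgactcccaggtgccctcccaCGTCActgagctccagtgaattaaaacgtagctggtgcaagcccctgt
In Dio2 the core lies on both strands and forms the full palindrome TGACGTCA, which overlaps both matches and begins 95 bases before the start. The core begins 147 bases before the start in Ucp1 and 49 bases before it in Ppargc1a. It was found in 17.8% of 32851 mouse promoter windows of 250 bases and the full palindrome in 1.55%. Promoter windows were used for 7 of the 10 members, without Cidea, Elovl3 and Kcnk3. Whether Cidea, Elovl3 or Kcnk3 has a match is not reported here, so the counts that follow cover the 7 alone. In 3 of the 7 the core was present, and these are the members shown above. Otop1, Letmd1, Plin5 and Prdm16 had no match to the core. A link between the core and the log2 change was not tested. TGATGNAA, the core of the composite element that ATF4 binds with C/EBP factors, or its reverse, was present in 3.45% of all windows and in 0 of the windows of the 7 members. The windows lie before RefSeq starts and leave out distant enhancers, and for some members GENCODE vM21 draws the gene differently. Both Plin5 windows overlap a Plin5 exon of that annotation, and the Otop1 window lies inside the Otop1 gene.

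Dio2, the deiodinase that makes active thyroid hormone inside the cell, was 12.2, 8.55 and 9.03 FPKM in the Atf4AKO libraries and 1.58, 17.4 and 2.34 FPKM in the Atf4WT libraries. Otop1, a proton channel known to mark brown and beige fat, was 5.48, 4.69 and 3.66 FPKM in Atf4AKO and 0.455, 8.0 and 1.64 FPKM in Atf4WT. For both, Atf4WT 1 and 3 lay below every Atf4AKO library and Atf4WT 2 above every one, as was also so for Ucp1, Elovl3 and Letmd1. The log2 change was 1.00 for Dio2 (SE 0.71, limma adjusted p = 0.581) and 0.77 for Otop1 (SE 0.63, limma adjusted p = 0.612). Both moved with single Atf4WT libraries. Without Atf4WT 1 the log2 change was 0.46 for Dio2 (limma adjusted p = 0.811) and 0.19 for Otop1 (limma adjusted p = 0.90). Without Atf4WT 2 it was 1.88 for Dio2 (limma adjusted p = 0.382) and 1.5 for Otop1 (limma adjusted p = 0.575), and without Atf4WT 3 it was 0.65 for Dio2.

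Kcnk3, a background potassium channel that in adipocytes limits the response to noradrenaline, took another order. It was 53.1, 64.03 and 70.9 FPKM in the Atf4AKO libraries and 35.2, 114.8 and 89.4 FPKM in the Atf4WT libraries. Here Atf4WT 3 lay above every Atf4AKO library. The log2 change was -0.19 (SE 0.42, limma adjusted p = 0.848), and it was -0.69 without Atf4WT 1 and 0.15 without Atf4WT 2.

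The lipid droplet and lipid synthesis genes spanned a wide range among the Atf4WT libraries. Cidea, a droplet protein abundant in thermogenic fat, was 280.2, 294 and 364 FPKM in the Atf4AKO libraries and 85.06, 874 and 382 FPKM in the Atf4WT libraries. Elovl3, an elongase of very long fatty acids that cold induces in brown fat, was 33.2, 25.5 and 43.4 FPKM in Atf4AKO and 8.69, 146.7 and 23.8 FPKM in Atf4WT. Plin5, a coat protein that ties droplets to mitochondria, was 18.9, 26.9 and 27.5 FPKM in Atf4AKO and 12.6, 69.9 and 21.5 FPKM in Atf4WT. In all 3 the Atf4AKO libraries lay between Atf4WT 1 and Atf4WT 2. The log2 change was 0.02 for Cidea (SE 0.78), 0.06 for Elovl3 (SE 0.93) and -0.15 for Plin5 (SE 0.58), and the limma adjusted p was 0.991, 0.983 and 0.918. Without Atf4WT 1 the log2 changes of Cidea and Elovl3 were -0.89 and -0.82, and without Atf4WT 2 they were 0.78 and 1.14. That of Plin5 was -0.67 without Atf4WT 1 and 0.52 without Atf4WT 2.

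Letmd1, a protein of the mitochondrial inner membrane that brown fat of mice needs for heat production, varied least within Atf4AKO. It was 26.5, 25.4 and 26.6 FPKM there and 12.2, 46.3 and 23.4 FPKM in the Atf4WT libraries. The highest library was 1.05 times the lowest in Atf4AKO and 3.81 times in Atf4WT. The log2 change was 0.13 (SE 0.43, limma adjusted p = 0.901), and it was -0.32 without Atf4WT 1 and 0.60 without Atf4WT 2.

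Ppargc1a and Prdm16, the transcriptional regulators of the set, differed from each other in pattern. Ppargc1a, the coactivator of mitochondrial and thermogenic genes, was 14.9, 22.6 and 6.27 FPKM in the Atf4AKO libraries and 3.78, 8.61 and 4.95 FPKM in the Atf4WT libraries. Its log2 change of 1.11 (SE 0.47, 95% interval -0.01 to 2.23, limma adjusted p = 0.50, exact permutation p = 0.2) had the smallest unadjusted p of the members, 0.0521. The 3 libraries with the highest Ppargc1a, Atf4AKO 2, Atf4AKO 1 and Atf4WT 2, were also the 3 with the highest muscle marker sums. Muscle is another tissue that expresses Ppargc1a. Acta1, muscle actin, was 605, 1467 and 2.84 FPKM in the Atf4AKO libraries and 3.82, 170.2 and 2.36 FPKM in the Atf4WT libraries. With the muscle marker level as a covariate the log2 change was 0.55 (SE 0.19, limma adjusted p = 0.982). With array weights it was 1.20 (SE 0.43, limma adjusted p = 0.277). When single libraries were left out it ran from 0.73 without Atf4AKO 2 to 1.58 without Atf4AKO 3. With Atf4AKO 3 as the only knockout library, assumed to vary like Atf4WT, it was 0.16, a fit chosen after seeing the data. Atf4AKO 1 and 2 are also the libraries highest in muscle markers, so genotype and muscle level run together in part. Only Atf4AKO 3 and Atf4WT 2 break this, too few libraries to tell the parts of genotype and muscle apart.

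**Figure D3:**
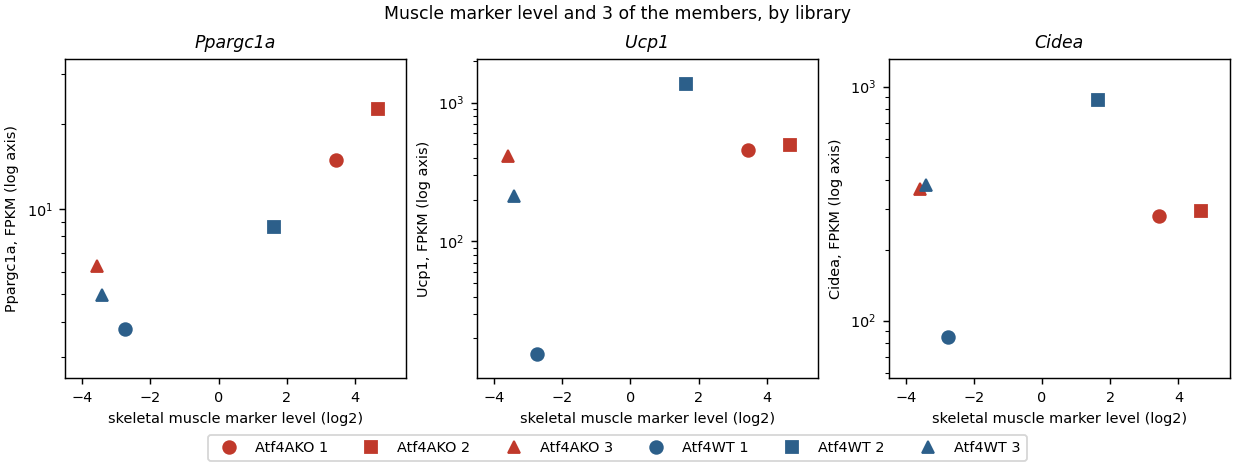
FPKM of Ppargc1a, Ucp1 and Cidea (log axes) against the skeletal muscle marker level, the mean log2 difference from the average library over the 10 tested markers, with Atf4AKO in red and Atf4WT in blue. The libraries form 2 sets in muscle level. In the set of higher level Ppargc1a lies at 14.9 and 22.6 FPKM in Atf4AKO and at 8.61 FPKM in Atf4WT. In the other set it lies at 6.27 FPKM in Atf4AKO and at 3.78 and 4.95 FPKM in Atf4WT. Ucp1 and Cidea are highest in Atf4WT 2, at an intermediate muscle level.

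Prdm16, the coregulator that sets brown and beige identity, varied least over all 6 libraries and was the least abundant member. It was 0.910, 1.11 and 1.17 FPKM in the Atf4AKO libraries and 0.885, 1.35 and 1.55 FPKM in the Atf4WT libraries, so that its highest library was Atf4WT 3. The log2 change was -0.12 (SE 0.16, limma adjusted p = 0.745), on a scale that understates differences at so low a level.

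Ranked from low to high Ucp1, the libraries ran Atf4WT 1, Atf4WT 3, Atf4AKO 3, Atf4AKO 1, Atf4AKO 2 and Atf4WT 2. Of the 9 other members 7 were likewise lowest in Atf4WT 1 and highest in Atf4WT 2, beside 5.41% of all tested genes. Within Atf4WT 8 of the 9 had the order of Ucp1, beside 21.4% of all tested genes, with Prdm16 the exception. Within Atf4AKO, where Ucp1 varied little, 1 of the 9 did (Ppargc1a), beside 16.8% of all tested genes. The size of the step differed between genes. The ratio of Atf4WT 2 to Atf4WT 1 was 88.6 for Ucp1, 17.6 for Otop1, 16.9 for Elovl3, 11.03 for Dio2, 10.3 for Cidea, 5.54 for Plin5, 3.81 for Letmd1, 3.27 for Kcnk3, 2.28 for Ppargc1a and 1.52 for Prdm16. A ratio as high as that of Ucp1 was found in 0.0624% of the tested genes, and one as high as that of Prdm16 in 10.4%. The summed adipocyte markers differed 1.38-fold between the same libraries.

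**Figure D4:**
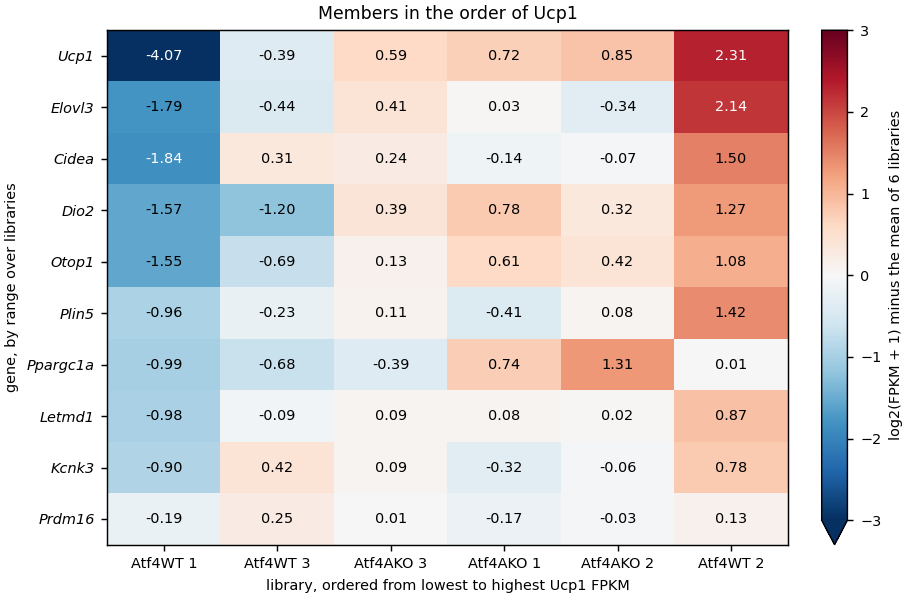
Each member's log2(FPKM + 1) minus its mean over the 6 libraries, in libraries ordered from lowest to highest Ucp1 (red above, blue below the mean). Atf4WT 1 is below the mean in all 10 rows, and Atf4WT 3 is above it in Cidea, Kcnk3 and Prdm16 alone.

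Letmd1, Otop1 and Cidea followed Ucp1 with a Pearson's r of at least 0.9 on log2(FPKM + 1), as did 2.81% of the other tested genes. The r was 0.96 for Letmd1 (exact permutation p = 0.00833), 0.95 for Otop1 (p = 0.00278) and 0.92 for Cidea (p = 0.0319). Spearman's rho was 0.77, 0.94 and 0.49 in the same order (exact permutation p = 0.103, 0.0167 and 0.356). Elovl3 (r = 0.89, rho = 0.77) and Dio2 (r = 0.88, rho = 0.83) came next, with exact permutation p of 0.0458 and 0.00556 for r and 0.103 and 0.0583 for rho. Plin5 (r = 0.82, rho = 0.71) and Kcnk3 (r = 0.80, rho = 0.49) had exact permutation p of 0.0861 and 0.0639 for r and 0.136 and 0.356 for rho. Ppargc1a (r = 0.60, rho = 0.83) and Prdm16 (r = 0.45, rho = 0.26) had exact permutation p of 0.196 and 0.388 for r and 0.0583 and 0.658 for rho. Adjusted over the 12818 tested genes by Benjamini-Hochberg no relation passed. The lowest p that 720 orders of the 6 libraries can give is 0.00139. Genes at that floor still had an adjusted p of 0.318, so the adjusted test could not single out even the closest relations.

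**Figure D5:**
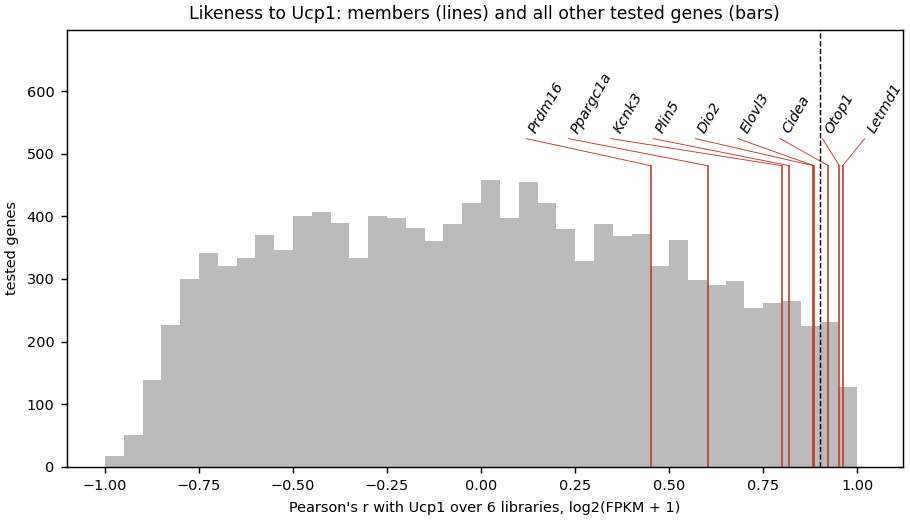
Distribution of Pearson's r with Ucp1 over the 6 libraries for all other tested genes (bars) with the 9 other members as lines and the limit of 0.9 dashed. Letmd1, Otop1 and Cidea lie past the limit, and Ppargc1a at 0.60 and Prdm16 at 0.45 lie farthest below it.

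Atf4WT 1 and Atf4WT 2 are the libraries farthest from the median of Ucp1, and without them the members divided into different sets. Over the remaining 4 libraries 2 of the 9 had an r of at least 0.9 (Otop1 and Dio2), beside 4.7% of all tested genes. The r was 0.96 for Otop1, 0.95 for Dio2, 0.85 for Letmd1 and 0.79 for Ppargc1a. It was 0.45 for Elovl3 and 0.30 for Plin5. It was -0.77 for Cidea, -0.86 for Kcnk3 and -0.90 for Prdm16, so the positive relation of these 3 with Ucp1 rests on the extreme libraries. The comparison left is Atf4WT 3 with the Atf4AKO libraries. Atf4WT 3 stood at 0.463 of the Atf4AKO mean for Ucp1, 0.236 for Dio2, 0.339 for Ppargc1a and 0.356 for Otop1, but at 1.22 for Cidea, 1.43 for Kcnk3 and 1.46 for Prdm16. The ratio of Ucp1 to Cidea in the same library shows this contrast per length. It was 1.63, 1.69 and 1.14 in the Atf4AKO libraries and 0.182, 1.57 and 0.554 in the Atf4WT libraries, so Cidea exceeded Ucp1 only in Atf4WT 1 and Atf4WT 3 among the 6 libraries.

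The genes whose pattern was most like that of Ucp1 among all other tested genes, leaving out members, predicted genes, genes under a mean of 1 FPKM and genes spanning under 1 log2 unit, were Cpt1b, Cox7a1, Cox8b, Mpc2, Fabp3, Suclg1, Elovl6 and Idh3g. Their r with Ucp1 over the 6 libraries lay between 0.99 and 1.00. Cox7a1, a subunit of cytochrome c oxidase, was 144, 151 and 129.7 FPKM in the Atf4AKO libraries and 6.67, 333 and 80.3 FPKM in the Atf4WT libraries. Cox8b, another such subunit, was 555, 576 and 460.3 FPKM in Atf4AKO and 85.7, 1004 and 371 FPKM in Atf4WT. Cpt1b, which passes long fatty acids into mitochondria, was 68.4, 75.6 and 63.5 FPKM in Atf4AKO and 12.01, 128.8 and 45.8 FPKM in Atf4WT. These 3 had the order of Ucp1 in all 6 libraries (rho = 1). Fabp3, a carrier of fatty acids, was 52.3, 52.02 and 72.1 FPKM in Atf4AKO and 0.333, 249.99 and 15.7 FPKM in Atf4WT, a wider span than Ucp1. Mpc2 carries pyruvate into mitochondria, Suclg1 and Idh3g encode enzymes of the citric acid cycle, and Elovl6 is a fatty acid elongase. Several of these genes are also expressed in muscle, whose part in their values was not tested. Acta1 was 605, 1467 and 2.84 FPKM in the Atf4AKO libraries and 3.82, 170.2 and 2.36 FPKM in the Atf4WT libraries. The genes of lowest r were Rab6b (-0.97), Gsta3 (-0.96), Iigp1 (-0.93) and Ccnd1 (-0.92), all highest in Atf4WT 1. Gsta3, a glutathione transferase, was 25.4, 30.9 and 31.6 FPKM in Atf4AKO and 92.2, 25.8 and 34.6 FPKM in Atf4WT.

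Other genes of the thermogenic pathway were read from lists. None passed the threshold (0 genes by limma in either direction, beside 0.0156% of all tested genes). Of 15 fuel and mitochondrial effectors 11 were positive and 4 negative, and the median log2 change was 0.46. In 10 of the 15, Atf4WT 1 was lowest and Atf4WT 2 highest, and 9 had an r with Ucp1 of at least 0.9, beside 5.41% and 2.81% of all tested genes. Among the 9 are Cpt1b, Cox7a1, Cox8b and Fabp3, already named above by the same r. By unadjusted p the first of the 15 were Acot2, Ucp3, Chchd10 and Acot11. Acot2, a mitochondrial acyl-CoA thioesterase, was 34.8, 28.3 and 36.5 FPKM in the Atf4AKO libraries and 45.4, 42.4 and 62.3 FPKM in the Atf4WT libraries, without overlap (log2 change -0.56, SE 0.18, limma adjusted p = 0.50). Acot11, a thioesterase of thermogenic fat, was 4.78, 2.82 and 3.56 FPKM in Atf4AKO and 0.512, 6.17 and 1.34 FPKM in Atf4WT. Ucp3, a relative of Ucp1 abundant in muscle, was 60.5, 103.5 and 66.7 FPKM in Atf4AKO and 31.2, 83.09 and 39.8 FPKM in Atf4WT. Chchd10, a protein of the mitochondrial intermembrane space, was 443, 517 and 759.7 FPKM in Atf4AKO and 474, 1121.9 and 860.4 FPKM in Atf4WT.

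Transcriptional regulators of thermogenic fat had 11 positive and 8 negative members of the 19 tested, with a median of 0.10. Cebpb, a C/EBP factor that cyclic AMP induces, was 241.6, 292 and 215 FPKM in the Atf4AKO libraries and 135.9, 199.7 and 174 FPKM in the Atf4WT libraries, without overlap (log2 change 0.56, SE 0.19, limma adjusted p = 0.50). Irf4, a partner of PGC-1α, did not overlap either, at 372, 465 and 415 FPKM in Atf4AKO and 292, 350.2 and 347 FPKM in Atf4WT (log2 change 0.34, SE 0.14, limma adjusted p = 0.501). Zfp516, an activator of Ucp1, was between 4.24 and 7.05 FPKM in Atf4AKO and between 3.39 and 4.69 FPKM in Atf4WT. Cebpa was 68.07, 98.7 and 38.02 FPKM in Atf4AKO and 47.3, 36.6 and 36.5 FPKM in Atf4WT. Of 10 reported repressors of Ucp1 or of beige fate 7 were positive and 3 negative in sign, with a median of 0.11. Foxo1, a forkhead factor of insulin signalling, was 58.99, 85.5 and 65.9 FPKM in Atf4AKO and 49.7, 52.9 and 43.8 FPKM in Atf4WT (log2 change 0.50, SE 0.16, limma adjusted p = 0.50). Nrip1, a nuclear corepressor of Ucp1, was 5.60, 10.7 and 3.45 FPKM in Atf4AKO and 3.28, 3.64 and 2.26 FPKM in Atf4WT. Zfp423 was between 1.43 and 1.96 FPKM in Atf4AKO and between 1.17 and 1.36 FPKM in Atf4WT, and Nr1h3 between 50.7 and 76.2 FPKM in Atf4AKO and between 71.1 and 85.8 FPKM in Atf4WT.

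Genes of adrenergic and cyclic AMP signalling lay on both sides, 6 positive and 5 negative of 11 tested, with a median of 0.19. Adrb3, the beta-adrenergic receptor typical of mouse adipocytes, was 4.75, 8.23 and 12.2 FPKM in the Atf4AKO libraries and 7.23, 7.94 and 22.96 FPKM in the Atf4WT libraries, and was named after its values were seen. Mapk14, the p38α kinase that acts on PGC-1α and ATF2, was 19.1, 11.5 and 16.7 FPKM in Atf4AKO and 25.3, 21.9 and 24.6 FPKM in Atf4WT, without overlap (log2 change -0.60, SE 0.19, limma adjusted p = 0.50). Creb1, a factor that binds cyclic AMP response elements, was between 3.36 and 4.61 FPKM in Atf4AKO and between 4.47 and 5.82 FPKM in Atf4WT. Prkar2b, a regulatory subunit of protein kinase A, was 103.9, 129.1 and 67.02 FPKM in Atf4AKO and 33.1, 90.7 and 65.7 FPKM in Atf4WT.

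Of the identity markers, beige and classical brown, 0 were called and in 0 did the groups separate. Of all tested genes 0.0156% were called. In 8.21% of them all Atf4AKO libraries lay above and in 8.34% below the Atf4WT libraries. Of 8 beige markers 4 were positive and 4 negative in sign, with a median of 0.03, and Slc36a2, an amino acid transporter at the surface of brown and beige cells, was 86.4, 97.3 and 86.7 FPKM in the Atf4AKO libraries and 36.97, 128.3 and 87.9 FPKM in the Atf4WT libraries. Slc36a2 was the 1 beige marker with an r with Ucp1 of at least 0.9 and was named after its values were seen. Hoxc9, Tmem26, Cited1 and Tnfrsf9 had the smallest p of the list, and Hoxc9 was between 4.12 and 8.15 FPKM in Atf4AKO and between 7.30 and 8.69 FPKM in Atf4WT. Cited1 was 1.63, 1.19 and 6.21 FPKM in Atf4AKO and 20.5, 4.25 and 0.745 FPKM in Atf4WT, highest in the library with the highest epithelial sum. Tmem26 and Tnfrsf9 were at or below 1.21 FPKM in all 6 libraries. Of the classical brown markers 1 was positive and 3 negative of 4 tested. Mpzl2 was 18.4, 19.2 and 62.8 FPKM in Atf4AKO and 54.98, 71.2 and 79.8 FPKM in Atf4WT (log2 change -1.24, SE 0.47, limma adjusted p = 0.50). Ebf3 was between 4.67 and 6.45 FPKM in Atf4AKO and between 6.40 and 7.56 FPKM in Atf4WT. Epsti1 was 10.3 FPKM in Atf4AKO 1 and at or below 2.62 FPKM in the other 5 libraries, and Lhx8 was between 2.71 and 6.03 FPKM in Atf4AKO and between 3.38 and 5.20 FPKM in Atf4WT.

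Genes of heat-producing cycles that do not need UCP1 had 4 positive and 3 negative members of 7 tested, with a median of 0.10. Gamt, the last enzyme of creatine synthesis, was 7.13, 9.44 and 5.58 FPKM in the Atf4AKO libraries and 1.89, 2.72 and 2.17 FPKM in the Atf4WT libraries, without overlap (log2 change 1.35, SE 0.20, limma adjusted p = 0.50). Its r with Ucp1 was 0.49. Ckmt2, the sarcomeric mitochondrial creatine kinase, was 5.91, 18.2 and 0 FPKM in Atf4AKO and 0, 0.994 and 0 FPKM in Atf4WT. Its level was above 0 only in the 3 libraries with the highest muscle marker sums. Atp2a2, a calcium pump of the endoplasmic reticulum, was between 41.1 and 46.5 FPKM in Atf4AKO and between 46.3 and 52.7 FPKM in Atf4WT, and Alpl, the phosphatase of the creatine cycle, between 5.4 and 11.2 FPKM in Atf4AKO and between 9.86 and 11.2 FPKM in Atf4WT.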

How the data were processed

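Messenger RNA of 6 iWAT libraries was sequenced from stranded Illumina libraries, per the labels' protocols, and the authors deposited 1 FPKM value per gene symbol and library. The build was mm10 per the submitters' processing notes, and for aligner, quantifier and annotation the sources used here name none. Columns were matched to samples by the labels. Values were analysed as log2(FPKM + 1) for genes averaging 0.5 FPKM or more, with limma 3.58.1 in R 4.3.3 (eBayes with trend, no covariate, Benjamini-Hochberg adjustment over 12818 genes, threshold 0.05). Correlations with Ucp1 were tested by exact permutation of the libraries (NumPy 2.4.6) and single genes by exact two-sided permutation (SciPy 1.17.1). The fit and the correlation step were tested on simulated data. Fold changes at low FPKM are understated by the pseudocount of 1. Overlapping genes may share reads, as the use of strand in counting is not stated.

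FPKM does not give read totals. Steps between low values put the relative depth between 0.933 and 1.19 of the mean, deepest in Atf4WT 1, but absolute depth is unknown and no detection limit is given. The sums of FPKM lay between 524158 and 717778. The members and lists were chosen with earlier results of these data known, and Mpzl2 replaced Eva1a, entered in its place by mistake, after values had been seen. Named genes are all members, up to 4 of smallest p from each list, the 8 genes most like Ucp1 and the 4 least like it. A gene of the adrenergic list that this rule names is not reported here. Adgre1 was found under an older symbol, Emr1. Alternatives were other pseudocounts, scalings, filters, weights and covariates, a replicate block and leaving out libraries.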

Additional observations from a re-analysis of the deposited data

How the results depend on the processing

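No member was called under any alternative tried (0 of 10 by limma), nor was any listed gene of the pathway, and 0 to 3 genes were called over the whole table. The smallest adjusted p of a member was 0.131, for Ppargc1a without Atf4AKO 3. The log2 change of Ucp1 ran from -0.24 without Atf4WT 1 to 2.95 without Atf4WT 2 when single libraries were left out. Those of Cidea ran from -0.89 to 0.78, of Elovl3 from -0.82 to 1.14, of Letmd1 from -0.32 to 0.60, of Plin5 from -0.67 to 0.52 and of Kcnk3 from -0.69 to 0.15. Cidea, Elovl3 and Letmd1, near 0 at first, turned to -0.13, -0.0812 and -0.0109 after rescaling to equal sums, which moved the median of all tested genes to -0.12 (0.00 before). They turned to -0.24, -0.31 and -0.0830 with the muscle covariate, to -0.46, -0.42 and -0.10 with array weights, to -0.33, -0.0609 and -0.0168 with the epithelial covariate, and to -0.68, -0.50 and -0.19 with the adipocyte covariate. With Atf4WT 3 as the only Atf4WT library Cidea was -0.30 and Plin5 0.16, and with Atf4AKO 3 as the only Atf4AKO library Plin5 was 0.0301, the lone library being assumed to vary like the other group. The cause of these turns was not tested. Dio2, Otop1, Ppargc1a and Prdm16 kept their sign under all of these alternatives. Fits with the epithelial or adipocyte covariate or without a pair of libraries were chosen after seeing the data.

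The count of members with an r of at least 0.9 with Ucp1 was 3, and 2 to 4 when single libraries were left out. It was 1 by Spearman's rho (Otop1) and 6 on residuals of the epithelial level, and the cause was not tested. The r of Prdm16 ran from -0.15 to 0.74 when single libraries were left out. Without Atf4WT 1 and 2 the r of Cidea, Prdm16 and Kcnk3 turned to -0.77, -0.90 and -0.86.

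Under a fit with replicate number as block, the log2 change of Ucp1 was 1.43 with an adjusted p of 0.569, and no call on a member changed. The deviations of same-numbered libraries correlated at 0.08, 0.40 and 0.07, and those of differently numbered libraries at between -0.32 and 0.19. These values do not settle whether the numbers pair the libraries, and the main fit took no pairing. The count over the whole table was 2 without and 0 with the block. Depth is known only in relative terms, so how far it limits Prdm16, the least abundant member, was not tested.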
